A study of Drosophila melanogaster with 2 samples.

Results

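Mesoderm and muscle development in the fly embryo was represented here by 8 genes: zfh1, tin, sls, Mef2, twi, bap, lmd and kirre. They were chosen by name, with the peak values described here already known, from genes that act in the mesoderm or in muscle, out of 13968 protein-coding genes. A peak was assigned to a gene when the start site nearest to its summit, among those of protein-coding genes, belonged to that gene. The values that chose the genes and their peaks are therefore given as a description and were not tested. Of the 8 genes, 6 encode transcription factors, while sls encodes a structural protein of the sarcomere and kirre an adhesion protein of the cell surface, so the name regulator fits 6 of them.

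The data are peak lists from chromatin immunoprecipitation and sequencing of the zinc finger protein Ham, which belongs to the PRDM family and is known for its part in the fates of sensory neurons. All embryos came from the strain ham-GFP, which makes a fusion of Ham with eGFP, and chromatin was collected with an antibody to GFP from whole embryos of 0 to 24 hours. There was 1 group with 2 biological replicates, and no other genotype, stage or treatment. Peaks come from all tissues and stages of the collection together, so how many cells carried Ham at a locus and how much each cell carried cannot be told apart, and no muscle or mesoderm cells were isolated. The labels number the replicates as biological and do not say whether they were separate collections of embryos. Of the transgene, the source label gives only the strain name and that the insertion targets ham.

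In the Drosophila embryo, twi, which encodes a bHLH factor, starts the mesoderm programme in the ventral cells. tin and bap, a neighbouring pair of NK homeobox genes, then act in the dorsal mesoderm. tin is needed there for the heart, though not for the heart alone, and bap for the muscle of the gut. Mef2 encodes the MADS-box factor that muscle differentiation needs, lmd a Gli-type zinc finger factor of the fusion-competent myoblasts, and kirre the immunoglobulin-domain protein by which muscle founder cells attract them. zfh1 encodes a zinc finger and homeodomain protein present in the early mesoderm and required in several of its derivatives, and sls encodes Sallimus, a titin-like protein of the muscle sarcomere.

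Each list gave a peak a height, which is the deposited signal value on a scale that is not stated, and a score that rises with its reproducibility up to 1000. The pooled ranked list held 150585 candidate regions and the thresholded list 1495 of them. All 1495 scored at least 830, which corresponded to a −log10 irreproducible discovery rate of at least 2.00. That score did not by itself place a region in the thresholded list, because 1664 candidate regions of the pooled list reached it. What kept the others out is not stated in the sources used here. The ranked lists of replicate 1 and replicate 2 held 101890 and 136956 candidate regions, of which 516 and 1050 were thresholded. Heights were larger in replicate 2 at 1203 of the 1250 thresholded peaks that could be read in both replicates (96.2%), with a median ratio of 2.19, and the labels do not say that the replicates share a scale. Heights are therefore ranked within a list, and a ratio between replicates is read only beside the same ratio at the other peaks. The depth of the libraries is unknown.

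Ham peaks passed the threshold at 4 of the 8 genes, sls, zfh1, tin and Mef2, with 1 peak each. Over all protein-coding genes 8.34% were nearest to a thresholded peak, and 11.7% of the 7534 genes with at least 5 candidate regions, the number that tin, the member with the fewest, had. Because the genes were chosen with these peaks in view, nothing is read from the difference. The same 4 genes had a peak in replicate 2's own list (6.37% of all genes), sls alone had one in replicate 1's list (2.82% of all genes), and sls, zfh1 and tin had one in the shorter conservative list (4.56% of all genes). The 8 genes held 327 candidate regions in the pooled list, 4 of which passed (1.22%, 95% Wilson interval 0.477% to 3.10%, counting error only), against 0.964% of all candidate regions on the chromosome arms. The interval takes the regions as independent, although some overlap. Because the genes were chosen with these peaks known, it is not a test against the share of all regions. In replicate 1 the share was 0.463% of 216 regions, against 0.426% of all regions, and in replicate 2 it was 1.25% of 320, against 0.765% of all regions. The median height of the members' candidate regions was 20.8, close to the 21.6 of all candidate regions on the arms.

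**Figure D1:**
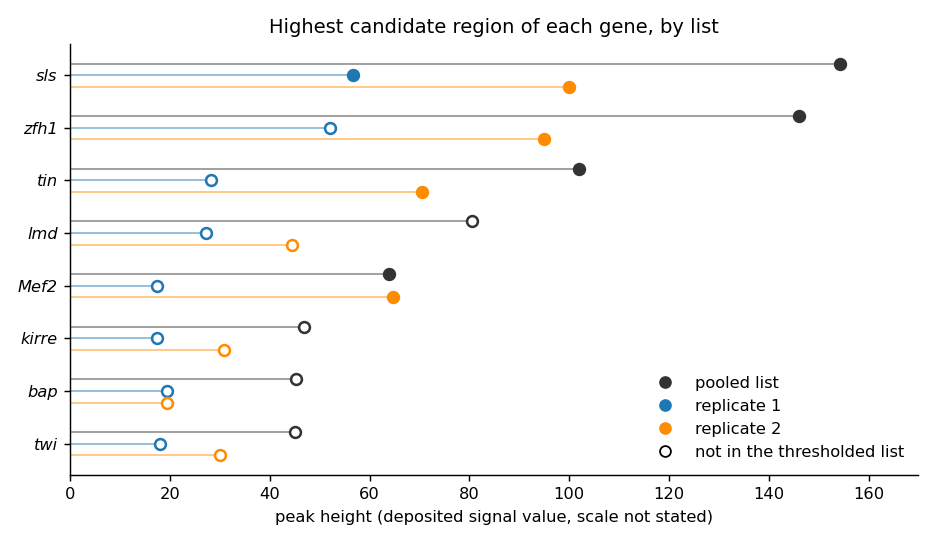
Height (deposited signal value, scale not stated) of the highest pooled candidate region of each of the 8 genes, in the pooled list and at the same locus in replicate 1 and in replicate 2, in dark grey, blue and orange; filled points were in that list's thresholded peaks. sls, zfh1 and tin stand highest in the pooled list (154, 146 and 102), and lmd (80.4) lies above Mef2 (63.8) without having passed.

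sls had the highest peak of the group. It lay on 3L from 2115706 to 2116041 with its summit 263 bp upstream of the only annotated start site of sls (FBgn0086906, minus strand, 2039681 to 2115611), between genes. Its height was 154 in the pooled list, and the same locus had heights of 56.6 in replicate 1 and 99.9 in replicate 2. It was thresholded in both replicates and in the conservative list, and it stood at rank 276 of the 1495 pooled peaks, higher than 81.5% of them. The next highest of the 65 regions of sls had a height of 60.5 and a score of 684, so it did not pass. That region lay in coding sequence, 28681 bp downstream of the start site, and the peak upstream of the gene was 2.55 times as high.

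zfh1 had its peak inside the gene. The region on 3R from 30781550 to 30781885 lay in an intron of zfh1 (FBgn0004606, plus strand, 30765926 to 30789202) and in an exon of the antisense RNA gene asRNA:CR45189, 1540 bp upstream of the internal one of the gene's 2 start sites. Its height was 146 in the pooled list, and the heights in replicates 1 and 2 were 52.1 and 95.0. It stood at rank 305 of the pooled peaks and was thresholded in replicate 2 and in the conservative list. In replicate 1 it scored 752 and did not pass, although its height there was above that of 99.6% of the candidate regions of that replicate. A neighbouring region, 974 bp closer to that start site, had a height of 61.3 and a score of 772. This was the highest score of any member region that did not pass. The zfh1 peak was 2.38 times as high as that neighbour and 7.21 times the median height of the 64 candidate regions of the gene.

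tin, a gene of 2994 bp with 1 start site (FBgn0004110, plus strand, 3R from 21378977 to 21381970), had its peak just upstream. The region from 21378592 to 21378927 had its summit 217 bp before the start site, between genes, and the next protein-coding start site, of mod(mdg4), was 1359 bp away. Its height was 102 in the pooled list, with 28.2 in replicate 1 and 70.5 in replicate 2. It stood at rank 601, and it was thresholded in replicate 2 and in the conservative list. In replicate 1 the region scored 23 while its height was above that of 98.4% of the candidate regions. The next region of tin, in its coding sequence, had a height of 56.3 and a score of 301.

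The summits of these 3 peaks, and the highest regions of lmd and bap, are shown with 50 bp on either side, to let the base composition and the searched words be seen. Sequences are from RefSeq Release 6, the build of the peak files (dm6), on the plus strand and 5′ to 3′, and capitals mark a match to any of 12 words searched on both strands.
sls (chr3L:2115824-2115924, plus strand): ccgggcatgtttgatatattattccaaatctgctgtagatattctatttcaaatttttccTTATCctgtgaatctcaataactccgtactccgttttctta
zfh1 (chr3R:30781668-30781768, plus strand): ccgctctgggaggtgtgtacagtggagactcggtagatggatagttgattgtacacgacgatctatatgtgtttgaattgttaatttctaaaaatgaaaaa
tin (chr3R:21378710-21378810, plus strand): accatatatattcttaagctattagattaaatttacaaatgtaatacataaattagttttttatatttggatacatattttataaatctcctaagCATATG
lmd (chr3R:23028665-23028765, plus strand): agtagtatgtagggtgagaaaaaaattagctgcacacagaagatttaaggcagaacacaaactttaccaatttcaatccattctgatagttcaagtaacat
bap (chr3R:21387292-21387392, plus strand): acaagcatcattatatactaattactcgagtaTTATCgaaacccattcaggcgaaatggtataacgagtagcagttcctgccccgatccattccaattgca

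The words were E-boxes and other sites of mesoderm factors, sites of the EVI1 family to which Ham belongs, and some other short words, and a match is only a match of letters. CATATG, an E-box that Twist is known to bind, was found at the edge of the tin window, 45 to 50 bases past the summit, and in 3.24% of the windows of all 1421 thresholded peaks on the arms. GATAA, read on the minus strand, was found at sls 10 to 14 bases past the summit and at bap 18 to 14 bases before it, and in 20.3% of all windows. It was also in the twi window. The windows of bap, twi, lmd and kirre are of candidate regions that did not pass, so they are not among the 1421. Of the 4 thresholded peaks, that of sls alone held GATAA. The windows of zfh1 and lmd held none of the words. CAGCTG (4.29% of all windows), CACATG (3.87%), CAGGTG (4.08%), CAGGTA (1.48%), CACTTGA (1.90%), the MEF2 consensus (5.49%), GAGAG (11.9%) and TTAAAA (27.9%) were not in the windows of any of the 8 genes, and neither were GACAAGATA and GAAGATGAG, each in 0.0704% of all windows. Some words overlap: CAGGTG and CAGGTA differ in their last base, and GACAAGATA ends in the first letters of GATAA. The share of A and T was 67.8% over the windows of the 4 thresholded peaks together, against 61.6% over all 1421 windows. Of these 4, zfh1 had 61.4%, Mef2 62.4% and sls 66.3%, so the joint share rests largely on tin. The tin window was the most A and T rich of the 8, with 81.2%, and the twi window the least, with 50.5%.

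Mef2 had the lowest of the 4 thresholded peaks. The region lay on 2R from 9949110 to 9949445, in an intron of Mef2 (FBgn0011656, minus strand, 9913496 to 9958858), 4514 bp upstream of one of its 3 start sites. Its height was 63.8 in the pooled list, with 17.4 in replicate 1 and 64.6 in replicate 2, a ratio of 3.72 that was larger than at 88.2% of the thresholded peaks read in both replicates. It stood at rank 1355, above 9.36% of the pooled peaks, and it was thresholded in replicate 2 but not in the conservative list. Its score in replicate 1 was 17, and its height there was above that of 85.6% of the candidate regions. In replicate 1 the highest region of the gene was not this one but its neighbour 391 bp away, with a height of 24.6 there, 35.3 in replicate 2 and 59.6 in the pooled list, and a pooled score of 326. A region 88 bp upstream of the distal start site of Mef2 had a pooled height of 54.2 and 54.7 in replicate 2, with no candidate region of replicate 1 over its summit.

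**Figure D2:**
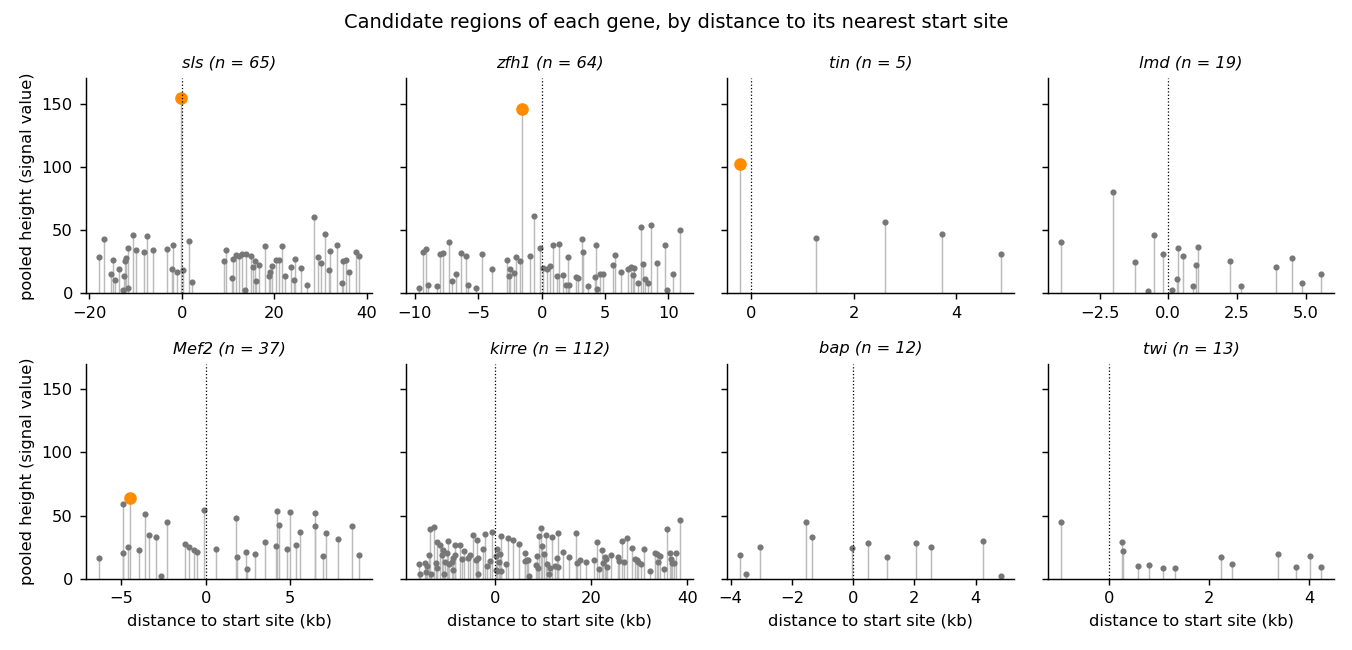
Height (pooled signal value) of every candidate region of each gene against the distance from its summit to the nearest start site of that gene in kb, negative upstream; large orange points passed the threshold. The peaks of sls and zfh1 rise well above the other regions of these genes, while that of Mef2 (63.8) is close to the next region (59.6).

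The other 4 genes had no thresholded peak, and their highest regions are candidates only. lmd came nearest. Its region on 3R from 23028547 to 23028882 lay between genes, 2002 bp upstream of the upstream start site of lmd (FBgn0039039, minus strand, 23021222 to 23026713). The height was 80.4 in the pooled list, above that of Mef2 and of 36.7% of the thresholded peaks, but the score was 701. Heights in replicates 1 and 2 were 27.2 and 44.5, with scores of 17 and 368. In replicate 1 the highest region of lmd was another one, with a height of 28.3 there, 543 bp upstream of the other start site of lmd.

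The NK homeobox gene bap (FBgn0004862, plus strand, 3R from 21388880 to 21390449) begins 6909 bp past the end of tin, but its highest region was much lower than that of tin. It had a height of 45.3 in the pooled list, against 102 at tin, and a score of 334, and lay 1538 bp upstream of the start site. The heights in replicates 1 and 2 were both 19.3, and this was the only one of the 8 genes whose highest pooled region was not larger in replicate 2. The highest region of bap in replicate 2 was a different one, 440 bp downstream of the start site, with a height of 29.9.

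twi (FBgn0003900, plus strand) is annotated on 2R from 22985374 to 23048325, with 3 start sites, and other genes, such as CG42741, lie inside that span. Its highest region, from 23044977 to 23045312, lay in an intron 963 bp upstream of a start site and had a height of 45.1 and a score of 423. Heights in replicates 1 and 2 were 18.0 and 30.0. The next region of twi had a height of 29.0. A thresholded peak of height 70.2 lay within the annotated span of twi, from 23012584 to 23012919, in coding sequence of CG42741. Its nearest protein-coding start site, that of CG9896, was 13868 bp away. This peak overlapped a thresholded peak of neither replicate and none of the conservative list.

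kirre (FBgn0028369, plus strand, X from 2740384 to 3134532) is the longest of the 8 genes, with 394149 bp, 6 start sites and 112 candidate regions. None of these passed. The highest had a height of 46.8 and a score of 406 and lay in an intron 38519 bp from a start site, with heights of 17.3 in replicate 1 and 30.8 in replicate 2. The span of kirre held 5 thresholded peaks that were nearest to the start sites of Syx4, which overlaps the beginning of the span, and CG32795, which lies inside it. Those nearest to Syx4 had heights of 133 and 92.9, and those nearest to CG32795 had heights of 107, 97.7 and 12.3. The last 2 of these overlap each other, so the 5 peaks cover 4 separate places, and the one of 12.3 had no candidate region of either replicate over its summit. The assignment by nearest start site therefore decides whether kirre counts as a gene with Ham peaks, and which gene these peaks act on was not tested.

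**Figure D3:**
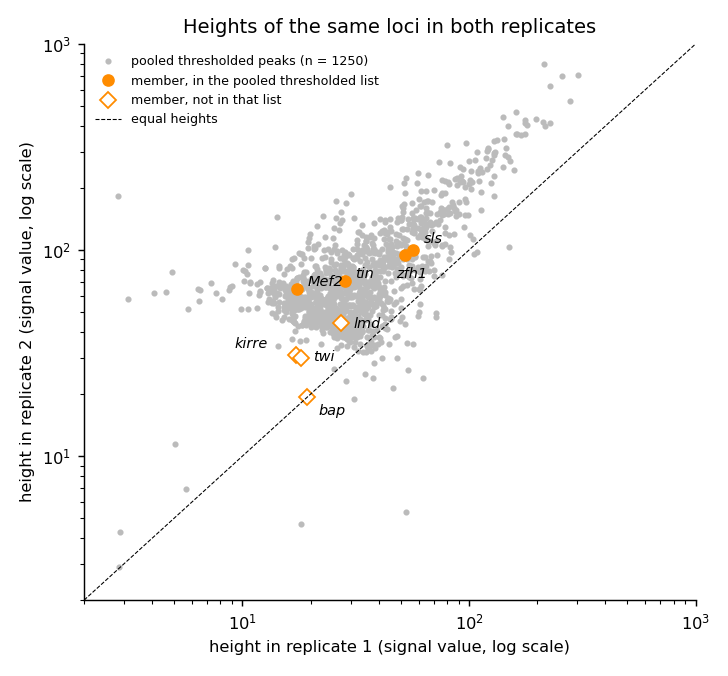
Height of the same locus in replicate 1 and replicate 2 (signal values, log scales) for the highest region of each of the 8 genes, in orange, and for the 1250 thresholded peaks read in both replicates, in grey. All of the 8 but bap, which lies on the line of equal heights, were higher in replicate 2, as were 96.2% of the grey peaks.

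The replicates did not always have their highest region at the same place. The highest region of the gene in replicate 1 overlapped the pooled highest one at zfh1, tin, sls and bap, and that in replicate 2 at zfh1, tin, sls, Mef2, twi and lmd. Of the 4 thresholded peaks, that of sls overlapped a thresholded peak of both replicates, and those of zfh1, tin and Mef2 overlapped one of replicate 2 only. Over all 1495 pooled peaks 25% overlapped one of both replicates and 38.5% one of replicate 2 only. The ratio of the height in replicate 2 to that in replicate 1 was 1.76 at sls, 1.82 at zfh1, 2.50 at tin and 3.72 at Mef2, with quartiles of 1.64 and 2.92 over the thresholded peaks.

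Height and score did not order the regions alike. The 4 thresholded peaks all had a score of 1000, and the −log10 irreproducible discovery rate was 3.30 at sls, 3.23 at zfh1, 2.51 at tin and 2.45 at Mef2. Below the threshold, 5 regions of 4 genes scored from 600 to 829. These were the neighbour at zfh1 (772), the region of lmd (701), the coding region of sls (684), a region of Mef2 at 1791 bp from a start site (625, height 48.0) and one in coding sequence of zfh1 (605, height 53.9). Scores of 600 to 829 were given to 1.53% of the members' regions and 1.01% of all candidate regions on the arms. For scores of 400 to 599 the shares lay the other way, at 1.83% and 2.79%. They were 14.4% and 13.8% for scores of 200 to 399, and 81.0% and 81.3% for scores under 200.

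**Figure D4:**
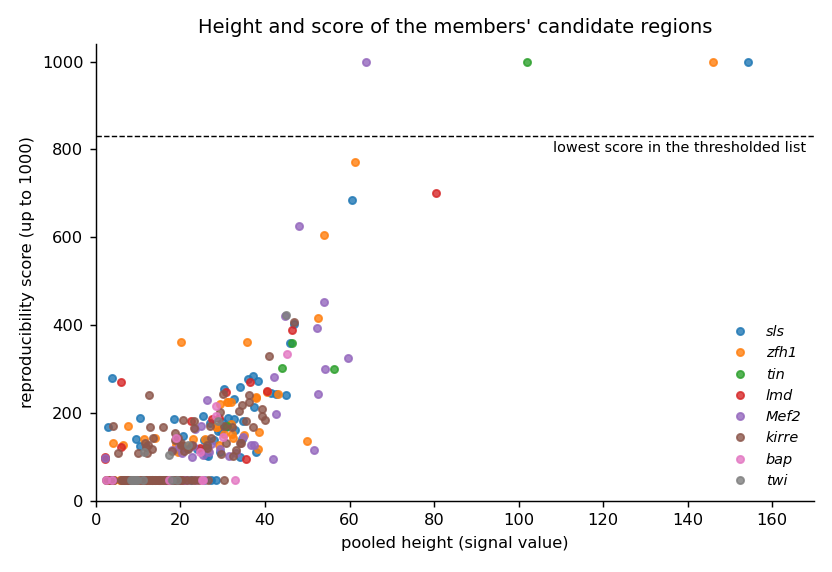
Score (reproducibility, up to 1000) against pooled height (signal value) of the 327 candidate regions of the 8 genes, coloured by gene, with the lowest score of the thresholded list as a dashed line. The region of Mef2 at a height of 63.8 lies above the line and that of lmd at 80.4 below it.

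Of the 4 thresholded peaks, those of sls and tin had their summit in a promoter, taken as 500 bp to either side of any annotated start, and those of zfh1 and Mef2 lay in introns. Over all 1421 thresholded peaks on the arms 51.7% were in promoters. The median height of the 4 peaks was 124, against 91.7 over all 1495.

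The 3 genes whose highest peak was most like that of sls, by the distance of log2 heights over the pooled list and both replicates, were ebi (distance 0.0731), CG3149 (0.108) and Faf2 (0.112), among 1069 genes compared. The heights at ebi were 149 in the pooled list, 56.0 in replicate 1 and 96.5 in replicate 2, and its summit lay 83 bp upstream of its start site. The measure rests on 3 values that share the same libraries.

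A wider list of 76 genes of mesoderm and muscle, which holds all 8, was grouped by role. Of the 76, 17 had a thresholded peak (22.4%), and without the 8 genes 13 of 68 (19.1%), against the 8.34% of all protein-coding genes and the 11.7% of those with at least 5 candidate regions. The listed genes had more candidate regions, with a median of 19.5 a gene, against 5 over all protein-coding genes. Per candidate region the shares were close to the 0.964% of all regions on the arms. Without the 8 genes 15 of the 1685 regions passed (0.89%), and with them 19 of the 2012 (0.944%). The wider list was also chosen with earlier results of these data known. Nothing is therefore read from its shares of genes or of regions. The 8 were left out of the counts that follow. Genes of mesoderm specification and patterning had a peak in 6 of 17 cases, with 6 of 510 candidate regions passed (1.18%). Myoblast fusion genes had one in 2 of 10 cases, with 3 of 213 regions passed (1.41%). Muscle identity genes had one in 2 of 12 cases, with 2 of 282 regions passed (0.709%), and genes of the sarcomere and of muscle attachment in 3 of 29, with 4 of 680 passed (0.588%). These shares lie on both sides of the 0.964% of all regions, rest on 2 to 6 peaks a role, and were not tested against each other.

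Among the patterning genes were both FGF ligand genes of the mesoderm, ths (117) and pyr (73.8), and both Tbx20-type genes, mid (110) and H15 (73.6), with the pooled height in brackets. ths had heights of 37.8 in replicate 1 and 84.7 in replicate 2, and mid had 38.8 and 71.5, and both were thresholded in replicate 2. The peaks of pyr, H15, Doc2 (86.0), a Dorsocross T-box gene, and sna (68.0), which encodes the zinc finger repressor Snail, overlapped a thresholded peak of neither replicate. The peaks of mid, H15, pyr and sna lay 12177 to 15194 bp downstream of the nearest start site of the gene. htl, which encodes the receptor of both FGF ligands, had a highest candidate region of 57.8 with a highest score of 449.

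Of the muscle identity genes, org-1, a T-box gene, had a peak of 224 with its summit 334 bp upstream of the start site, thresholded in both replicates, where its heights were 72.4 in replicate 1 and 150 in replicate 2. Poxm, a Pax gene, had one of 75.7 at 372 bp upstream, thresholded in neither, with heights of 39.5 in replicate 1 and 34.9 in replicate 2. Of the fusion genes, mbc, which encodes an activator of the GTPase Rac, had a peak of 88.2 at 16 bp upstream of its start site. That summit also lay 128 bp upstream of the start site of Nup98-96, so the peak is not particular to mbc. The gene siz, which encodes an exchange factor for Arf GTPases, had 2 peaks, of 82.9 and 76.6. At mbc the heights were 13.5 in replicate 1 and 69.2 in replicate 2, where the peak was thresholded. At siz the peak of 82.9 was thresholded in neither replicate, with heights of 18.1 in replicate 1 and 57.3 in replicate 2, and the peak of 76.6 in replicate 2 only. The receptor genes of fusion other than kirre, namely rst, sns and hbs, had no thresholded peak and highest regions of 44.1, 60.6 and 46.3.

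Msp300, which encodes a nesprin that anchors muscle nuclei, had the highest peak of the whole list, with a height of 238 in the pooled list, 96.1 in replicate 1 and 147 in replicate 2, thresholded in both. It lay 382 bp upstream of one of its start sites, and a further peak of 129 lay 606 bp upstream of another. That further peak was thresholded in replicate 2 and had no candidate region of replicate 1 over its summit. sr, which encodes the tendon cell factor Stripe, had a peak of 98.1 in an intron, thresholded in replicate 2 only. Zasp52, which encodes a Z-disc protein, had one of 79.9, between genes and 13668 bp from its nearest start site. It was thresholded in neither replicate, with heights of 8.12 in replicate 1 and 58.0 in replicate 2. Several genes of the contractile apparatus had no thresholded peak. Mhc, the myosin heavy chain gene, had a highest region of 50.7, Mlc1 one of 26.5, Act57B one of 65.7 and wupA, which encodes troponin I, one of 39.1. Others of the sarcomere group without a peak came nearer to passing. TpnC41C had a highest region of 96.9 and a highest score of 793, and Obsc had 64.4 and 824. Tm1, a tropomyosin gene, had a region with a score of 943 that was absent from the thresholded list. Hand and Tm2 had no candidate region of their own.

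**Figure D5:**
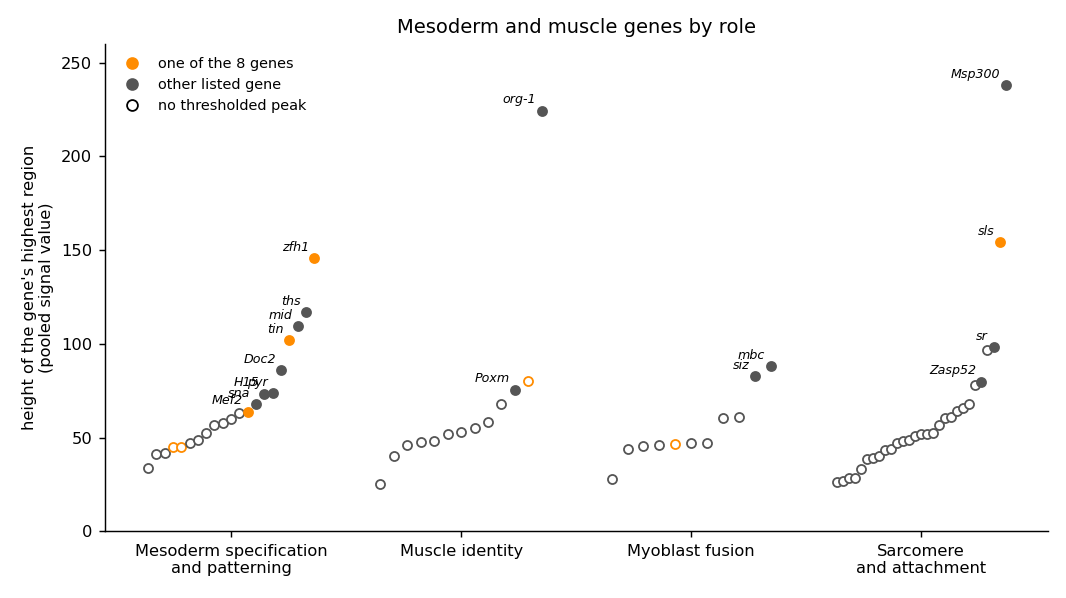
Height of the highest candidate region (pooled signal value) of the listed genes of mesoderm and muscle, by role, in rising order within each role; filled points have a thresholded peak, and the 8 genes described above are orange. Msp300 (238) and org-1 (224) lie above sls (154) and zfh1 (146).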

How the data were processed

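Peak lists on dm6 from 2 biological replicates and their pool were used. Per the deposited file descriptions, candidate regions were ranked by irreproducible discovery rate. The aligner, peak caller, settings and control were not given in the sources used here, and control libraries were not analysed here. The signal value (height), the score and the −log10 of the irreproducible discovery rate are the authors' values as deposited, and every thresholded peak scored 830 or more. Summits were given to the nearest protein-coding start site of Ensembl release 115 (BDGP6.54) on chromosomes Y, 4 and X and the arms of 2 and 3. A replicate's height at a pooled peak is that of the highest candidate region over the summit. Overlap means at least 1 shared bp. Promoters lie within 500 bp of a start site, transposable elements excepted. Windows span 50 bp on either side of a summit, from RefSeq Release 6. The log2 distance of heights was computed here. The older symbol Unc-89 was read as Obsc. The analysis used Python 3.11.15 with pandas 2.3.3, numpy 2.4.6 and scipy 1.17.1, and its overlap and assignment steps were tested on simulated data.

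The 8 genes, the wider list and the words were chosen with earlier results of these data known, so no test was made; replicates, peaks and genes are described only. Named were all 8 genes with their thresholded peaks or highest region, the wider-list genes with a peak, and the 3 genes most like the highest peak. The other wider-list genes named (htl, rst, sns, hbs, Mhc, Mlc1, Act57B, wupA, TpnC41C, Obsc, Tm1, Hand, Tm2) were picked after their values were seen.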

Additional observations from a re-analysis of the deposited data

How the results depend on the processing

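Of 39 alternatives, 29 left the value within its limits (1.5 times for a count, the spread of the 4 member peaks for the median height, the counting interval for a share) and 10 moved it. Some could not move the members' values. All 4 member peaks scored 1000, lay at most 4514 bp from a start site and were 1 per gene. The spread for the median height was wide, from 63.8 to 154. The count of 29 is therefore no measure of robustness. With single replicates' lists, the members with a peak numbered 1 to 4, their peaks also 1 to 4, the wider list's genes with a peak 4 to 13, the median height 56.6 to 82.8 and the share of candidate regions that passed 0.463% to 1.25%. The lowest value of each came from replicate 1's list, without replicate 2, and heights of different lists need not share a scale. With any gene body within 1 kb the members' peaks numbered 10, in 6 genes, because the peaks in the spans of kirre and twi were added, 2 of which overlap. With start sites of every annotated feature, transposable elements included, Mef2 lost its peak to an element and 3 members were left. The wider list had 9 genes in the conservative list, 11 with a score of 1000 and 11 within 5 kb of a start site. With a promoter limit of 250 bp, 1 member peak was in a promoter, that of tin.

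No paired analysis was possible because there was a single group. The depth of the libraries is unknown, so a region without a thresholded peak cannot be said to lack Ham.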

Other observations

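tin and bap belong to the cluster of NK homeobox genes on 3R, whose other genes lbl, lbe, C15 and slou act in muscle, heart or leg patterning. This set was put together after the data were seen. Of the 6, tin alone had a thresholded peak. Over all protein-coding genes the share was 8.34%, and 11.7% of those with at least 5 candidate regions, so nothing is read from this count. The highest candidate regions had heights of 45.9 at lbl, 55.2 at lbe, 52.7 at C15 and 52.8 at slou, against 102 at tin and 45.3 at bap. The highest scores were 413 at lbl, 316 at lbe, 591 at C15 and 391 at slou. The numbers of candidate regions ran from 5 at tin to 36 at lbe.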
